A study of Mus musculus with 4 samples.

Results

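The scaffold of the sarcomere was followed through 10 of its genes in 4 tissues of the developing mouse lower jaw and tongue. They are Ttn, Neb, Nrap, Ldb3, Myoz1 and Csrp3, which act along the thin filament and at the Z-disc, and Myom1, Myom2, Mybpc1 and Mybpc2, which act at the M-band and on the thick filament. The genes were taken by symbol and for their known place in the sarcomere, and the arrays carried 26 probes for these 10 genes, of 56601 probes and 27194 named genes in all. Total RNA of ICR mouse embryos (ICR is an outbred stock) was read on Agilent single-colour arrays after Cy3 labelling. The earliest tissue was the medial part of the mandibular arch (MMA), pooled from 12 embryos at E9.5. At E11.5 the lateral lingual swellings (LLS), outgrowths that give rise to much of the tongue, and the lateral part of the mandibular arch (LMA) were each pooled from 4 embryos. The tongue (T) was pooled from 4 embryos at E14.5. The embryos were untreated, and the labels name no mutation. Each tissue was 1 pool on 1 array, so no difference has a replicate check and no test between tissues was made. All 4 are dissected pieces of mixed tissue, and T differs from the others, and MMA from LLS and LMA, in stage and region together.

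A sarcomere is the contractile unit of striated muscle and lies between a pair of Z-discs, where thin actin filaments of neighbouring units are anchored and cross-linked. Myosin thick filaments sit in its middle and are held in register at the M-band, and titin runs from the Z-disc to the M-band as an elastic tether. In the tongue and the jaw the skeletal muscle arises from precursors that move in or form locally, leave the cell cycle, fuse and then assemble these structures, with scaffold and contractile proteins put in place together.

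The arrays had 59305 non-control spots each, with 57.0% (MMA), 59.3% (LLS), 62.9% (LMA) and 58.9% (T) of them well above background and 0 saturated. Signals are background-subtracted intensities as deposited. A difference between tissues is a difference of log2 signal after the 75th percentile of the array was subtracted, and a difference of 1 is 2-fold. A signal that was not well above background is called dim, and its difference was computed from its own value or from a floor, whichever was higher. The floor is the lowest signal well above background on that array (a signal of 22.2 for MMA, 21.3 for LLS, 20.1 for LMA and 26.7 for T), and such a difference is a bound. The error given with a difference is the combined error of both spots in the model of the scanner software. Tissues next to each other in level are said to differ beyond this error where the difference is over 2 times it. In that check dim signals kept their own value, without the floor, and have large errors in log2. The error covers the spots only, and 291 probes printed 10 times on each array gave a smaller median SD of 0.036 to 0.048 for differences between tissues. The labels of the tissues were set against markers of muscle and other cells. The myogenic factor genes Myod1 and Myog had signals of 1350 and 11584 in T and were dim in MMA. Of 7 epithelial markers, 3 were at least 2-fold higher in T than in MMA and 2 were lower. The keratin gene Krt5 had 27.9 in MMA and 85625 in T, while Krt8 had 13403 and 4990 and Krt18 had 37581 and 21555. The extraction text of the labels mentions cerebellum, and of 7 cerebellar markers Gabra6 and Atoh1 were dim in all 4 tissues. Pcp2 (up to 1560, in LMA), Cbln1 (up to 794, in MMA), Barhl1 and Zic1 were well above background in all 4, and En2 was in MMA and LMA.

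All the genes but Mybpc2, which was dim everywhere, were far higher in the tongue at E14.5 than in any earlier tissue. T exceeded LLS by at least 2-fold in all 9 genes compared, against 12.8% of all 17736 genes compared, and 0 were at least 2-fold lower, against 6.03%. The median difference of the 9 genes was 5.34, with a range from 4.33 for Neb to a bound of 9.0 for Myom2, beside a median of -0.07 over all genes. Of these 9 genes, 4 were dim in LLS and entered the comparison through their T signal alone, so their count holds no more than that. Against LMA, where all 9 were measured on both sides, 9 were at least 2-fold higher in T (14.1% of 18286 genes) and 0 lower (7.26%), with a median of 4.90 beside -0.04 over all genes. Against MMA, 9 were at least 2-fold higher in T (18.3% of 17637 genes) and 0 lower (13.8%), with a median of 6.51 beside -0.10. Of the 9, 8 were dim in MMA and entered through T alone, and the median is the bound of Neb. In such pooled tissue, more muscle cells and more RNA per muscle cell cannot be told apart.

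**Figure D1:**
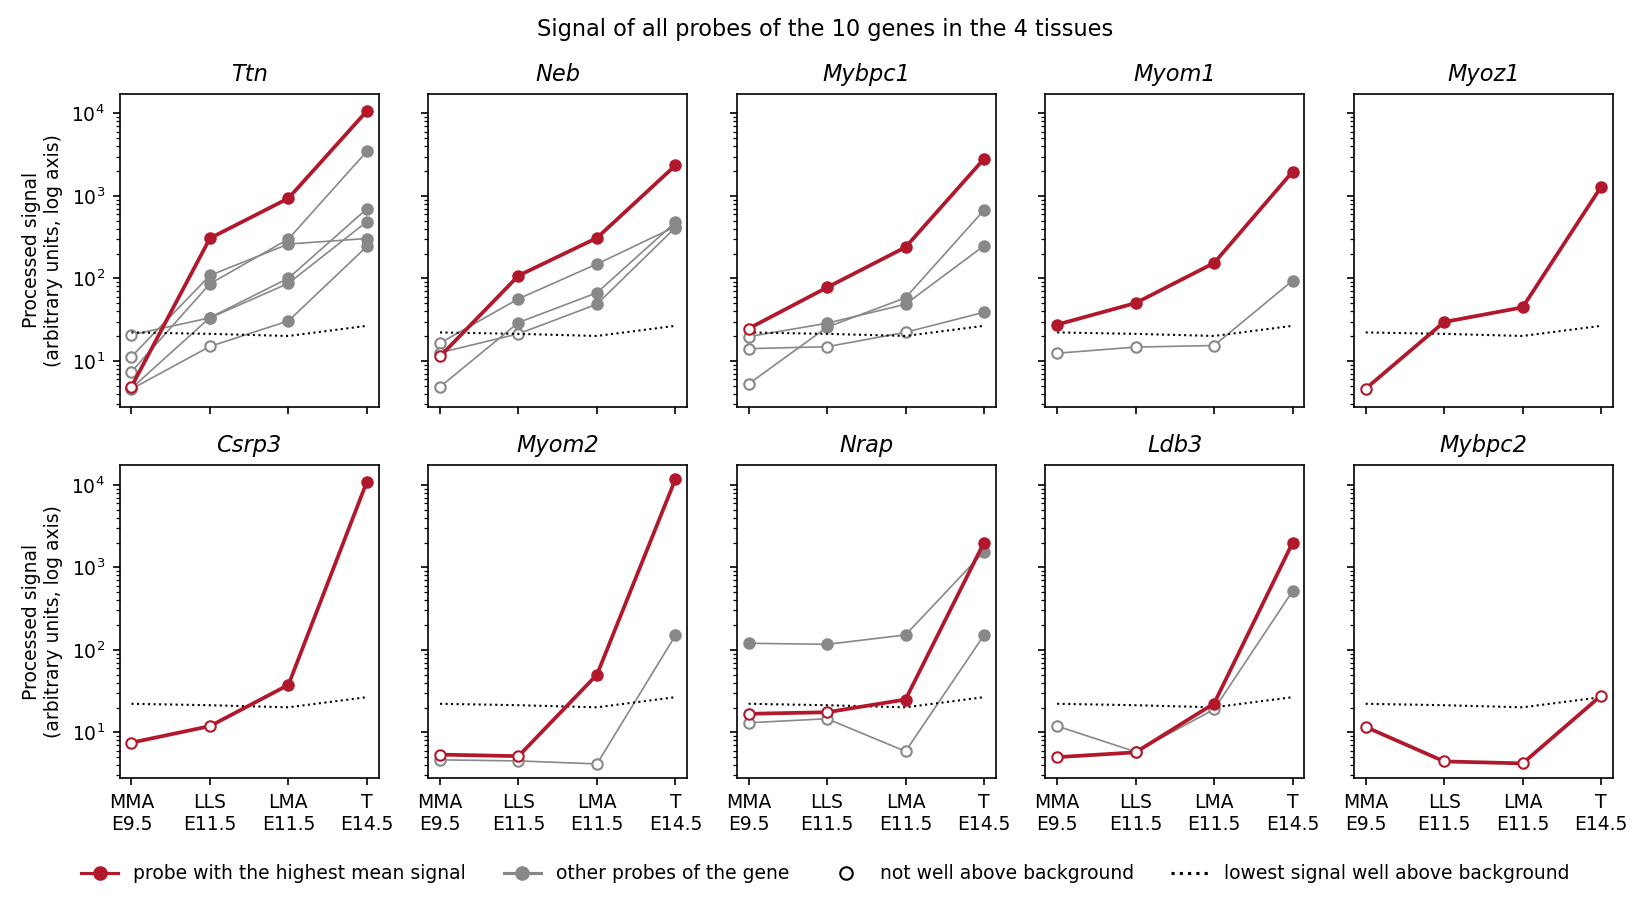
Processed signal (log axis) of every probe of the 10 genes in MMA, LLS, LMA and T, 1 array each. Red lines show the probe with the highest mean signal, grey lines the other probes, open circles dim signals and the dotted line the lowest signal well above background. Ttn, Neb, Mybpc1 and Myom1 climb in steps through LLS and LMA, the red lines of Csrp3, Myom2, Nrap and Ldb3 lie at 50 or lower until T, and Mybpc2 stays dim throughout.

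Titin, encoded by Ttn, is the giant elastic protein that spans the half-sarcomere and serves as a template for its assembly. Its probe with the highest mean signal (chromosome 2, 76542077 to 76542136, minus strand, mm9) had signals of 4.88 in MMA, where it was dim, 307 in LLS, 937 in LMA and 10712 in T. The signal was thus not well above background at E9.5, clear in both tissues of E11.5 and far higher at E14.5. Ttn was 32.4-fold higher in T than in LLS (log2 difference 5.02, error 0.21) and 11.8-fold higher in T than in LMA (3.56, error 0.20). It was at least 35.2-fold higher in LMA than in MMA (5.14) and at least 12.8-fold higher in LLS than in MMA (3.68).

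The 6 Ttn probes did not give 1 answer. Both probes on 1 RefSeq transcript differed by 3.58 and 3.56 between T and LMA. A probe on another RefSeq transcript differed by 3.05, and further probes by 2.84 and 2.53. The sixth probe lies at mm9 chr2:76674450-76674629 on the minus strand, a span longer than its 60 bases, so its coordinates cross an intron. It had signals of 11.3 in MMA, where it was dim, 109 in LLS and 262 in LMA, then 305 in T, and so was nearly level between LMA and T (difference 0.27, error 0.21). Its sequence is shown because it did not share the difference of the other Ttn probes. Which titin isoforms hold this stretch was not tested.
Ttn split probe: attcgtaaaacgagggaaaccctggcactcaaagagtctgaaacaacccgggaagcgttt

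Nebulin, encoded by Neb, lies along the thin filament and is anchored at the Z-disc. Its signals were 11.4 (dim) at E9.5 in MMA, 108 in LLS and 310 in LMA at E11.5, and 2349 at E14.5 in T (chromosome 2, 51992837 to 51992896, minus strand, mm9). The order of the tissues was that of Ttn. Neb was 20.2-fold higher in T than in LLS (4.33, error 0.21) and 7.82-fold higher in T than in LMA (2.97, error 0.21), the smallest values among the 9 genes in both comparisons. Of its 4 probes, 3 differed by 2.89 to 3.13 between T and LMA and the fourth by 1.55.

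Nrap, the nebulin-related anchoring protein, is known from sites of myofibril assembly and from myotendinous junctions. Its signals were 16.8 in MMA and 17.5 in LLS, both dim, 25.0 in LMA and 1996 in T (chromosome 19, 56394669 to 56394728, minus strand, mm9). The 3 earlier tissues did not differ beyond the error of the spots, and T stood alone. Nrap was 82.5-fold higher in T than in LMA (6.37, error 0.32) and at least 87.0-fold higher in T than in LLS (6.44). A second probe on the same transcript was dim in all tissues but T, where it had 150. The remaining probe, designed on an mRNA record of Nrap, is placed by the header on chromosome 3 (141908216 to 141908275, mm9) rather than 19 and ends in 6 A bases. This probe was well above background everywhere, with 120 in MMA and 117 in LLS, then 152 in LMA and 1544 in T. Its difference between T and LMA was 3.40, so the size of the Nrap difference rests on the probe while its direction does not.

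Ldb3 encodes a PDZ and LIM domain protein of the Z-disc, also called Cypher or ZASP, that binds alpha-actinin. Its signals were 5.0 in MMA and 5.72 in LLS, both dim, 22.4 in LMA and 1982 in T (chromosome 14, 35340222 to 35340281, minus strand, mm9). The LMA signal lay just above the floor of 20.1. Its log2 difference from the dim LLS signal, without the floor, was 1.81 with an error of 1.24, which is not over 2 times the error. Ldb3 was 91.6-fold higher in T than in LMA (6.52, error 0.35) and at least 86.4-fold higher in T than in LLS (6.43). Its other probe, 514 in T and dim elsewhere, gave a bound of 4.72 for T minus LMA.

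Myoz1 encodes myozenin 1, or calsarcin-2, which links alpha-actinin and calcineurin at the Z-disc of fast muscle. Its only probe (chromosome 14, 21468483 to 21468542, minus strand, mm9) had signals of 4.61 (MMA, dim), 29.7 (LLS), 44.7 (LMA) and 1293 (T). LLS and LMA were low, did not differ beyond the error of the spots (-0.44, error 0.33) and lay far under T. Myoz1 was 40.4-fold higher in T than in LLS (5.34, error 0.30) and 29.9-fold higher in T than in LMA (4.90, error 0.24).

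Csrp3 encodes the muscle LIM protein, which binds at the Z-disc and is known for its place in heart and slow muscle. Its only probe (chromosome 7, 56086063 to 56087977, minus strand, mm9) crosses an intron by its coordinates and reads the spliced mRNA. The signals were 7.51 in MMA and 11.9 in LLS, both dim, 37.6 in LMA and 10904 in T. Csrp3 was 300-fold higher in T than in LMA (8.23, error 0.26), the largest of the 9 differences in that comparison, and at least 475-fold higher in T than in LLS (8.89). It ranked 4 of 18286 genes in T minus LMA, with the bounds of other genes ranked at their value. The probe is shown because this value rests on it alone.
Csrp3 probe: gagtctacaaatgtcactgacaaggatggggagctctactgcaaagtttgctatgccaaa

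At the M-band the 2 myomesin genes differed in when they were measured. Myom1 encodes myomesin, which links myosin and titin in all striated muscle, and its signals were 27.6 at E9.5 in MMA, 50.4 in LLS and 154 in LMA at E11.5, and 1967 at E14.5 in T (chromosome 17, 71475839 to 71475898, plus strand, mm9). By the probe taken for each gene it was the only member well above background at E9.5, where it lay near the floor of 22.2. Each tissue in that order differed from the next beyond the error of the spots, LLS from MMA narrowly (0.76, error 0.33). Myom1 was 36.3-fold higher in T than in LLS (5.18, error 0.24), 13.2-fold higher in T than in LMA (3.72, error 0.21) and 61.3-fold higher in T than in MMA (5.94, error 0.31). Myom2 encodes the M-protein, an M-band partner known from fast and heart muscle. Its signals were 5.37 in MMA and 5.14 in LLS, both dim, 50 in LMA and 11738 in T (chromosome 8, 15133322 to 15133381, plus strand, mm9). Myom2 was 242-fold higher in T than in LMA (7.92, error 0.25) and at least 512-fold higher in T than in LLS (9.0). The second probe of each gene was dim outside T, with 94.1 in T for Myom1 and 149 in T for Myom2, and gave bounds of 2.27 and 2.94 for T minus LMA.

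Mybpc1 and Mybpc2 encode the slow and the fast skeletal form of myosin-binding protein C, which sits in stripes along the thick filament and tunes the cross-bridges. Mybpc1 had signals of 24.7 (dim) in MMA and 77.9 in LLS, then 239 in LMA and 2813 in T (chromosome 10, 87981078 to 87981137, minus strand, mm9). It was 33.6-fold higher in T than in LLS (5.07, error 0.22) and 12.1-fold higher in T than in LMA (3.60, error 0.21). The Mybpc2 probe (chromosome 7, 51759105 to 51759164, minus strand, mm9) had signals of 11.6 (MMA), 4.44 (LLS), 4.21 (LMA) and 27.8 (T), and none of them was well above background. Its only probe therefore gave no difference in any comparison, and so low a level cannot be told from none. A second Mybpc1 probe reads a stretch related to that of the Mybpc2 probe. Set over each other at an offset of 3 bases, the probes share 31 of 57 bases, shown in capitals, and the pair is printed to show how far the probes of these relatives differ.
Mybpc1 probe: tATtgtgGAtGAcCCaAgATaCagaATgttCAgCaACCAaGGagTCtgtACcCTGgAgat
Mybpc2 probe: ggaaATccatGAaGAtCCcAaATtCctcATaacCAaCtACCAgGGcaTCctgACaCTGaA

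That second Mybpc1 probe (chromosome 10, 87985807 to 87985866, mm9) had 5.27 (dim) at E9.5 in MMA, 25.7 in LLS and 58.3 in LMA at E11.5, and 674 at E14.5 in T. Its T minus LMA difference of 3.58 (error 0.24) stood beside 3.60 for the probe taken for the gene. The other Mybpc1 probes both cross introns by their coordinates and gave smaller values. The probe at mm9 chr10:88029270-88031362 differed by 2.40 between T and LMA, and the probe at chr10:87999211-88000253, on a predicted transcript, was dim in all tissues but T, where it had 38.9, for a bound of 0.85. The plot of single probes shows that probes of 1 gene could lie further apart than different genes did.

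**Figure D2:**
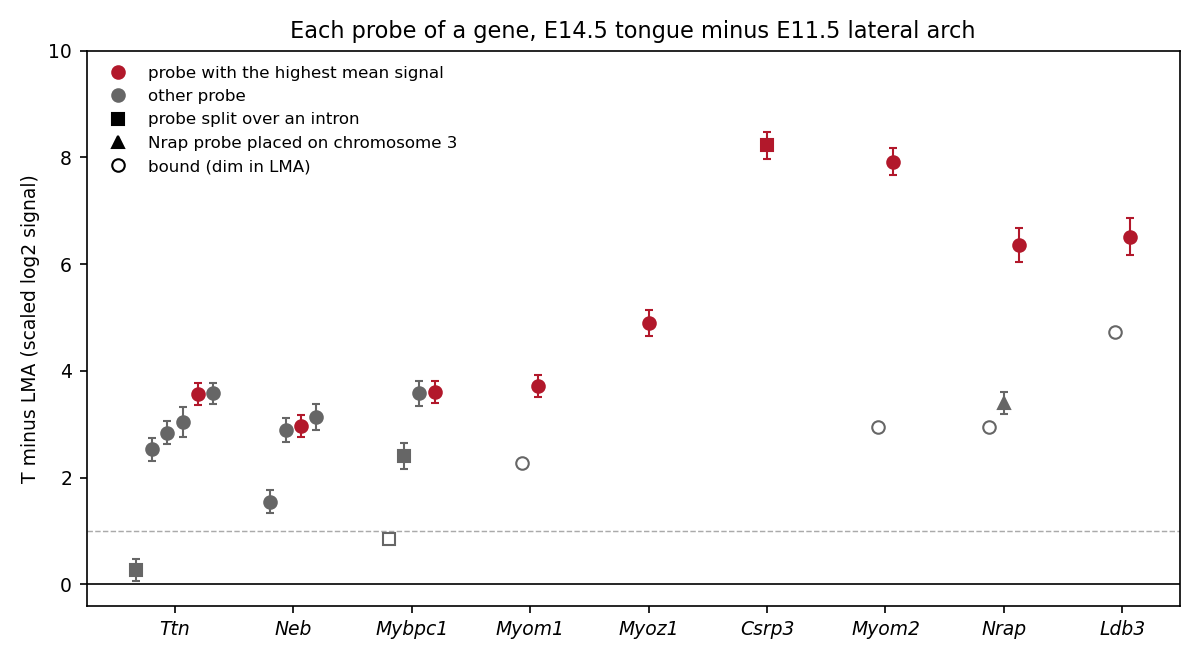
Difference in scaled log2 signal between T and LMA for each probe of the 9 genes with a value. Bars give the combined spot error, open symbols are bounds, squares are probes that cross an intron by their coordinates, the triangle is the Nrap probe placed on chromosome 3, and the dashed line marks 2-fold. The taken probes (red) run from 2.97 for Neb to 8.23 for Csrp3, and the split probe of Ttn lies at 0.27.

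At E11.5, Ttn, Neb, Myom1, Myom2 and Mybpc1 were lower in the lingual swellings than in the lateral arch, and no member was 2-fold higher. LLS against LMA asks how the tongue-forming outgrowths differ from the neighbouring arch of the same stage. Of 9 members compared, 5 were at least 2-fold lower in LLS, against 2.88% of all 17737 genes, and 0 were at least 2-fold higher, against 3.62%. The median was -1.08, the bound of Myom2, beside 0.01 over all genes. Of the 9, 4 (Nrap, Ldb3, Csrp3 and Myom2) were dim in LLS and entered through LMA alone, and Myom2 is 1 of the 5 counted as lower. Mybpc1 (-1.47, error 0.22), Myom1 (-1.46, error 0.24), Ttn (-1.46, error 0.21) and Neb (-1.37, error 0.21) differed by nearly the same size, between 2.58-fold and 2.76-fold. Myom2 was at least 2.11-fold lower in LLS (-1.08). Myoz1 was at -0.44. Csrp3 and Nrap were dim in LLS, and their bounds of -0.67 and -0.08 do not show whether they differed by 2-fold. Ldb3, near the floor in LMA and dim in LLS, gave no fold, though its value entered the median. With normexp background correction, which adds an offset of 50 to every signal, 1 of the 9 members was at least 2-fold lower, and with the mean over all probes of a gene 2 were.

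Markers of other cell types moved with the same pair of tissues. Of 6 endothelial markers, 5 were at least 2-fold lower in LLS than in LMA (median -1.32), and their summed signal, in multiples of the array's 75th percentile, was 6.28 in LLS and 14.9 in LMA. Of 7 epithelial markers, 4 were more than 2-fold higher in LLS and 0 more than 2-fold lower (median 2.05), with sums of 62.3 in LLS and 22.1 in LMA. Of 7 myocyte markers compared, 3 were at least 2-fold lower in LLS and 0 higher (median -0.93), with sums of 8.25 in LLS and 18.3 in LMA. The part of these markers in the scaffold result was not tested.

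By the probe taken for each gene, 5 members in LLS and 9 in LMA at E11.5 were well above background, against 1 in MMA at E9.5. These tissues differ in region as well as in stage. In LMA, 4 of 9 members compared were at least 2-fold higher than in MMA, against 10.5% of 17735 genes, and 0 were lower, against 7.16%. Of the 9, 8 were dim in MMA and entered through their LMA signal alone, so none of these could be counted as lower. The 4 were Ttn (bound 5.14), Neb (bound 3.54), Mybpc1 (bound 3.01) and Myom1 (2.22, error 0.31). The median over the 9 was 0.91, the bound of Myom2, beside -0.09 over all genes. Myom2 (bound 0.91), Myoz1 (bound 0.75) and Csrp3 (bound 0.50) lay above the floor of MMA by less than 2-fold. Nrap and Ldb3 gave no fold, though their values entered the median. In LLS, 3 of 5 members compared were at least 2-fold higher than in MMA, against 9.68% of 17106 genes, and 0 lower, against 5.59%. The median of the 5 was 1.55, the bound of Mybpc1, beside -0.06 over all genes. Of these 5, 4 were dim in MMA and entered through LLS alone. The 3 were Ttn (bound 3.68), Neb (bound 2.18) and Mybpc1 (bound 1.55), while Myom1 was higher by 0.76 (error 0.33) and Myoz1 by a bound of 0.31. The other 5 members were dim in both tissues.

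**Figure D3:**
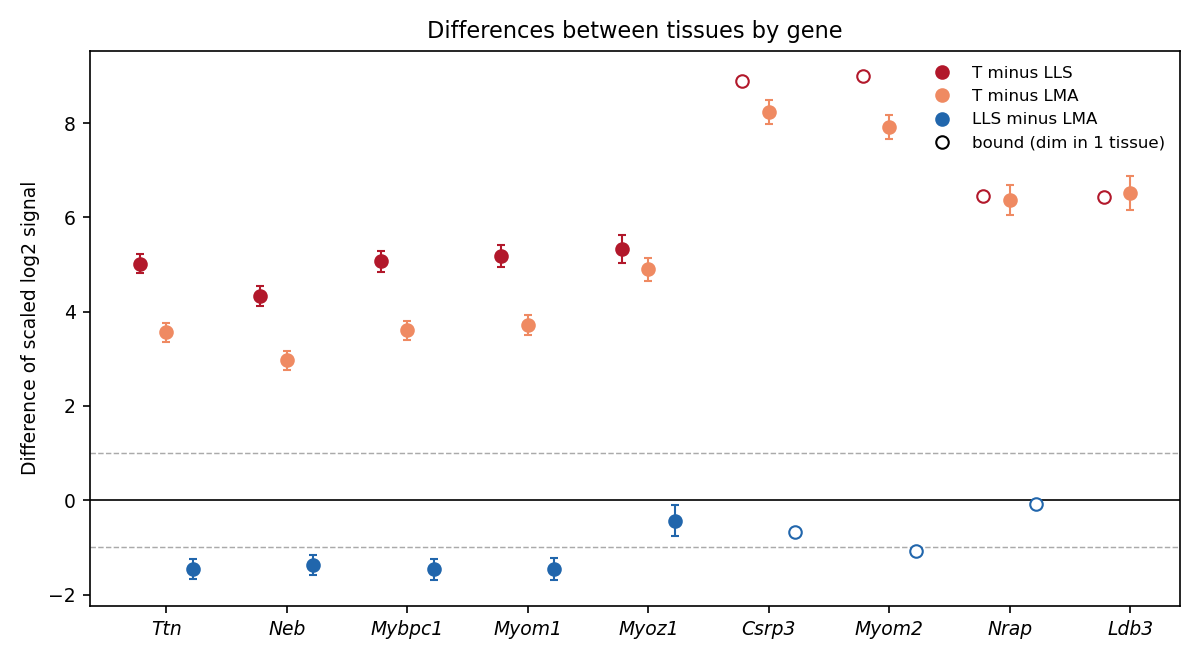
Difference in scaled log2 signal of the 9 genes for T minus LLS (red), T minus LMA (orange) and LLS minus LMA (blue). Bars give the combined spot error, open circles are bounds where 1 tissue was dim, and dashed lines mark 2-fold. Ttn, Neb, Mybpc1 and Myom1 lie between 2.97 and 3.72 in T minus LMA and near -1.4 in LLS minus LMA, and Csrp3, Myom2, Nrap and Ldb3 lie between 6.37 and 8.23 in T minus LMA.

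By these values the members fall into 4 kinds, described after the values were seen. Ttn, Neb, Mybpc1 and Myom1 were well above background in LLS and LMA, stood higher in LMA, and were 2.97 to 3.72 higher in T than in LMA. Csrp3, Myom2, Nrap and Ldb3 were dim in LLS, low in LMA with signals of 22.4 to 50, and 6.37 to 8.23 higher in T than in LMA. Myoz1 lay between them at 4.90, and Mybpc2 was not measured above background. Z-disc and thin-filament genes were found in the early and the late kind, and so were M-band and thick-filament genes. The Nrap probe placed on chromosome 3, at 3.40, would move Nrap out of the late kind.

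Relatives of the members in the same families gave further values, set out along each probe and not between probes. Among the myomesins, Myom3 was dim in MMA and had 63.9 in LLS, 312 in LMA and 4138 in T, an order like that of Myom1. It was 3.78 higher in T than in LMA and -2.13 in LLS minus LMA. Among the myozenins, Myoz2 (calsarcin-1) was dim in MMA and LLS and had 53.5 in LMA and 3040 in T, with a T minus LMA difference of 5.87. Myoz3 stayed between 12.9 and 44.7 and was dim in LLS and T. Mybpc3, the cardiac form of myosin-binding protein C, had 113 in MMA, was dim in LLS, and had 30.8 in LMA and 201 in T. Its LMA minus MMA difference was -2.14. Mybph, a shorter relative, had 29.3 in MMA and 66.6 in LLS, then 400 in LMA and 5363 in T, in the order of Mybpc1. Csrp2, a LIM relative of Csrp3 known from smooth muscle and early mesenchyme, ran the other way, with 49816 (MMA), 30954 (LLS), 23846 (LMA) and 8267 (T).

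**Figure D4:**
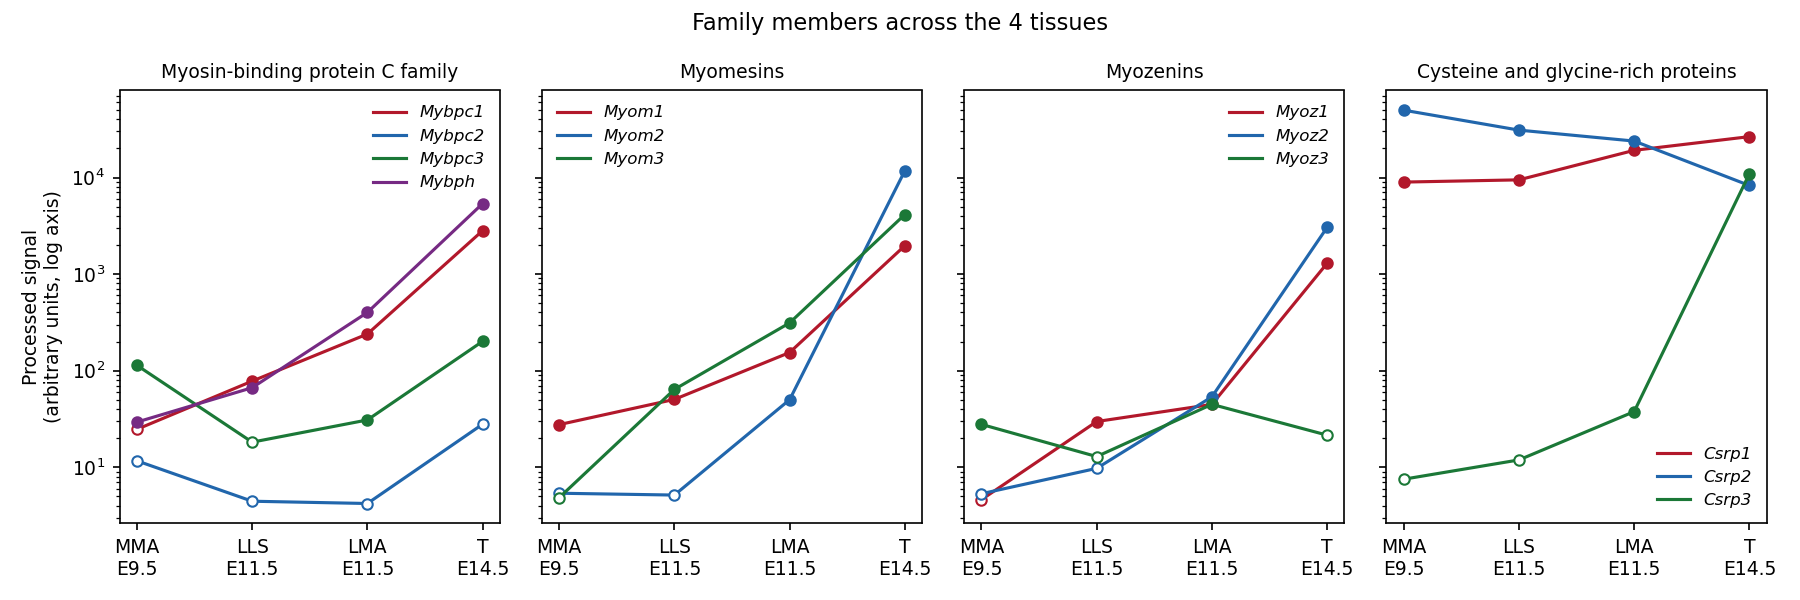
Processed signal (log axis) of the probe with the highest mean signal for family members in MMA, LLS, LMA and T, with open circles for dim signals. Lines are to be read along themselves, since signals of different probes are not on 1 scale. Myom3 and Mybph climb through LMA to T, Myoz3 is dim in T, and Csrp2 is lowest in T at 8267.

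The partners of these proteins were described from 2 lists of known sarcomere genes. Among 32 Z-disc and thin-filament partners compared, 23 were at least 2-fold higher in T than in LLS and 1 was at least 2-fold lower. Their median was 2.59. The highest were Myoz2 (bound 7.05), the stretch-linked ankyrin repeat gene Ankrd2 (bound 6.62) and myotilin gene Myot (6.39), and the lowest Csrp2 (-2.01), Fhl3 (-0.65) and Pdlim7 (-0.24). The titin cap gene Tcap, whose protein binds titin at the Z-disc, had 64.0 at E9.5 in MMA, 44.5 in LLS and 193 in LMA at E11.5, and 2018 at E14.5 in T and was 5.40 higher in T than in LLS. Among 14 M-band and thick-filament partners compared, the counts were 11 and 0, and the median was 3.46. The highest were the muscle creatine kinase gene Ckm (bound 6.99), Mybph (6.23) and Myom3 (5.91), and the lowest Obsl1 (-0.64), Speg (-0.62) and Smyd1 (0.22). Unc45b, a chaperone of myosin, had 44.1 in MMA and 125 in LLS, then 570 in LMA and 4874 in T.

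Set beside them, T exceeded LLS by at least 2-fold in 21 of 24 contractile-filament genes, while in 0 of them LLS exceeded T by as much, and the median was 5.92. The highest were the light chain genes Myl4 (8.32) and Mylpf (7.54) and the troponin gene Tnnc2 (7.36), and the lowest Tpm3 (-0.33), Myh1 (0.25) and Actn3 (0.63). In T minus LMA the medians were 4.90 for the 9 scaffold members, 4.27 for 24 contractile genes (21 higher, 1 lower), 2.95 for 14 M-band partners (11 higher, 0 lower) and 2.35 for 33 Z-disc partners (23 higher, 1 lower). In LLS minus LMA, 16 of 24 contractile genes were at least 2-fold lower in LLS and 0 at least 2-fold higher (median -1.54). By the same count, 5 of 10 M-band partners were lower and 0 higher (-0.76). Of 31 Z-disc partners, 6 were lower and 1 higher (-0.22). Over all genes, 2.88% were at least 2-fold lower in LLS and 3.62% higher. Many Z-disc partners, such as Lasp1 with signals of 6781 (MMA), 10007 (LLS), 11238 (LMA) and 13697 (T), were well above background in every tissue. These comparisons share their arrays, and the lists were not tested against each other.

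**Figure D5:**
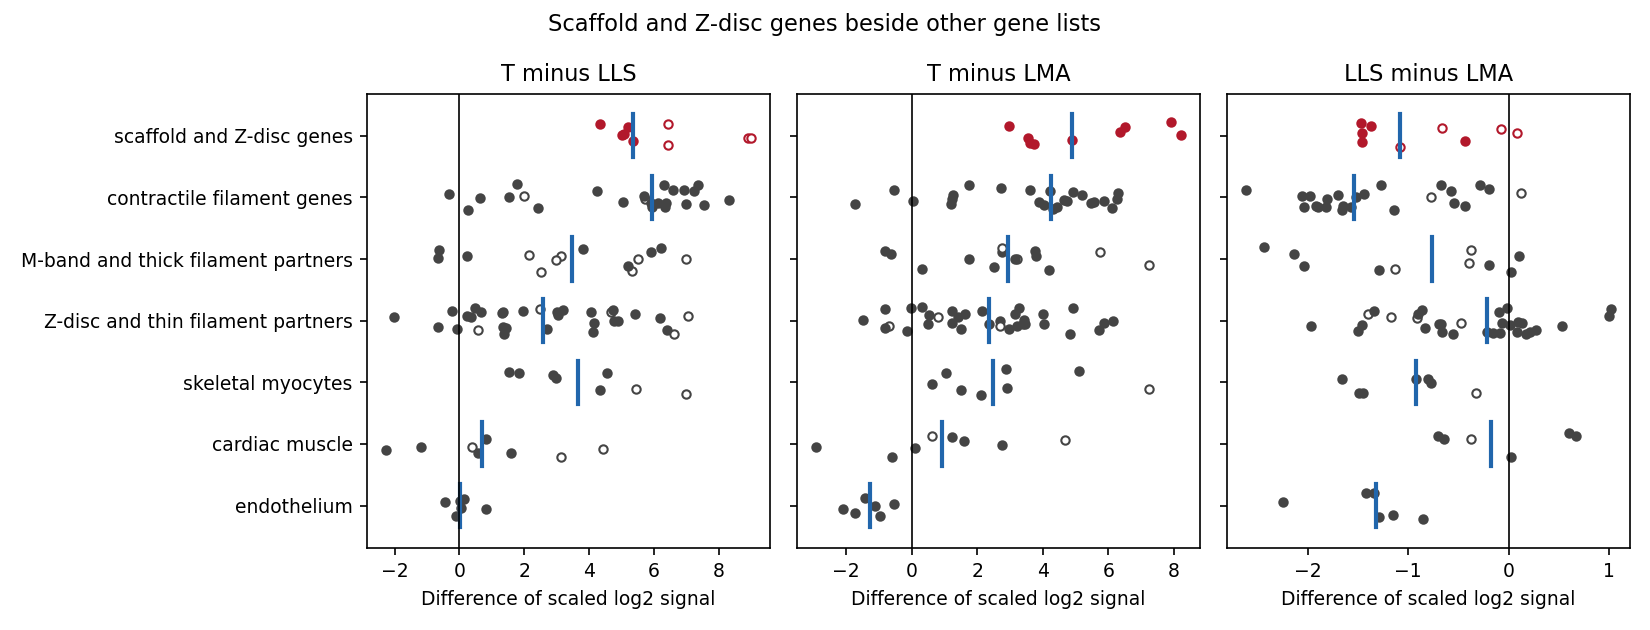
Difference in scaled log2 signal for each gene of the scaffold members (red) and of 6 lists, in T minus LLS, T minus LMA and LLS minus LMA. Open circles are bounds and blue bars list medians. The 9 scaffold members compared lie above 0 in both T comparisons, 4 of them as bounds in T minus LLS, with medians of 5.34 and 4.90. Endothelial markers lie below 0 in T minus LMA, with a median of -1.26.

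Markers of the cells that could hold these transcripts moved as follows. T exceeded LLS by at least 2-fold in all 8 myocyte markers, with a median of 3.67, from Myod1 (1.54), Cdh15 (1.85) and Mef2c (2.88) to Chrna1 (4.54), Myf6 (bound 5.44) and Ckm (bound 6.99). Their summed scaled signal was 2.01 at E9.5 in MMA, 8.25 in LLS and 18.3 in LMA at E11.5, and 64.9 at E14.5 in T, beside 0.28, 1.36, 3.60 and 93.3 for the 10 scaffold members in the same order. Such sums weigh the brightest probes most, and different probes are not on 1 scale. Myom2, Csrp3 and Ttn made up 23.9, 22.2 and 21.8 of the 93.3 in T. Among 8 cardiac markers 3 were at least 2-fold higher in T than in LLS and 2 lower (median 0.69), and their sum was 3.87 in MMA and 5.09 in LLS, then 6.73 in LMA and 8.35 in T. Of these cardiac markers, Nppa and Nppb were dim in the 3 earlier tissues and had 30.0 and 495 in T. Nkx2-5 had 200 (MMA), 700 (LLS), 767 (LMA) and 2273 (T), and Myh6 had 88.2 (MMA), 361 (LLS), 656 (LMA) and 684 (T). Myl7 had 513 (MMA), 86.4 (LLS), 60.6 (LMA) and 138 (T). The 2 genes of the cardiac list lower in T than in LLS were Tnni3 and Hand2. Whether genes of this list read heart cells in these dissections was not tested. Tnni3 had 31.7 (MMA), 98.9 (LLS), 72.4 (LMA) and 46.7 (T), and Hand2 had 663 (MMA), 1034 (LLS), 1802 (LMA) and 230 (T). Endothelial markers summed to 11.4 at E9.5 in MMA, 6.28 in LLS and 14.9 in LMA at E11.5, and 5.52 at E14.5 in T, and 0 of 6 differed by 2-fold between T and LLS (median 0.03). The part of any of these in the scaffold results was not tested.

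Of the remaining markers, 3 of 5 for muscle progenitors were at least 2-fold higher in T than in LLS and 1 lower (median 1.47), 3 of 5 for smooth muscle higher and 1 lower (1.19), 2 of 7 for epithelium higher and 0 lower (0.55), 0 of 6 for erythroid cells higher and 4 lower (-2.47), and 0 of 4 for cerebellum higher and 2 lower (-0.67). Ckm and Mybpc3 each stand in both a partner list and a marker list.

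Genes outside the 10 were ranked by how closely their levels over the 4 tissues, centred on their own mean, followed the median of the 10 members, dim Mybpc2 included, among 14513 candidates. The measure was the distance in log2 units over 4 points, a description that many genes high in T would share. The closest was Sh3bgr at a distance of 0.32, which was 5.15 higher in T than in LLS and 4.52 higher in T than in LMA, followed by Lgals7 (0.40), Ankrd1 (0.52), Tnni1 (0.65), Nell1 (0.67), Hspb2 (0.72), Prr32 (0.73), Klhl40 (0.76) and Mustn1 (0.76). Ankrd1 and Klhl40 are in the Z-disc list and Tnni1 among the contractile genes. The nearest genes of single members were Actc1 and Ogn for Ttn, Dok7 and Ablim3 for Neb, Unc45b and Pgam2 for Mybpc1, and Tnni1 and Nell1 for Myom1. They were Hspb2 and Mustn1 for Myoz1, Cox8b and S100a14 for Csrp3, Cox6a2 and Cox8b for Myom2, Chil1 and Fabp4 for Nrap, and Fabp4 and Cyp2f2 for Ldb3. Csrp3, Myom2, Nrap and Ldb3 were dim in MMA and LLS, where their levels are the floor.

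Because most members moved together, promoter sequence was read for those with an entry in the RefSeq table (GRCm38.p6), which held 9 windows for 7 of the 10 genes. Windows of 250 bases before the start were searched on both strands for the E-box CANNTG, bound by MyoD-family factors, for TATAAA, for the MEF2 site and for the CArG box. Over all 32851 windows, 66.2% held an E-box, 12.4% TATAAA, 2.92% a MEF2 site and 1.47% a CArG box. The Ttn window held 1 MEF2 site and 1 E-box, the Csrp3 window at the gene's start 4 E-boxes, the Nrap window 3, the Mybpc1 window 2 and the Mybpc2 window 1. The other 4 windows lay wholly inside the annotated genes. Of these, the Csrp3 window held 4 E-boxes, the Myom1 window 3 E-boxes and 1 CArG box, and the Ldb3 windows, which overlap, 1 CArG box each, which may be the same one. The promoters of 3 genes are shown, for a gene measured from E11.5, a gene first high at E14.5 and the gene that stayed dim, on the minus strand at chr2:76982558-76982797, chr7:48848052-48848301 and chr7:44524716-44524919, with matches to these motifs in capitals. The Ttn and Mybpc2 sequences are 240 and 204 bases because bases inside the annotated gene were left out. A match is a run of letters and not a site shown to be bound.
Ttn promoter: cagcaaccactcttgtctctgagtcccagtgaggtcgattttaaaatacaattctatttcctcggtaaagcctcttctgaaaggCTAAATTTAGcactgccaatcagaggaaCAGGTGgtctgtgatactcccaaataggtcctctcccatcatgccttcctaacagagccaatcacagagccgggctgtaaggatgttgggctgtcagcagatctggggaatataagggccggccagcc
Csrp3 promoter: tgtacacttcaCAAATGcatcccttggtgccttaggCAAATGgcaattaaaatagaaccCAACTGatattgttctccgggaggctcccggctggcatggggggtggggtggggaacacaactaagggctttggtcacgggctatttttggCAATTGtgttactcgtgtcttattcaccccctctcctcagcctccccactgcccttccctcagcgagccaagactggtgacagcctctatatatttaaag
Mybpc2 promoter: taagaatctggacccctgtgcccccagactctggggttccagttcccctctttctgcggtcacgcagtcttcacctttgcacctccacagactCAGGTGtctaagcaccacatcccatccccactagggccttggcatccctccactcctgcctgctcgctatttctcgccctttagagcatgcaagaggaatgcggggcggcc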

How the data were processed

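The deposited scanner files hold the intensity of each spot from Agilent Feature Extraction (10.7.1.1 per the file headers, 9.5.1.1 in the submitters' processing notes), background-subtracted, detrended and not scaled between arrays, with probe positions in mm9. Their flags, also written by that software per the file headers, say whether a spot was well above background. A second deposited table of linear intensity, normalized between arrays by a method not given in the sources used here, served as an alternative. It held all 26 member probes, and 4460 array probes are not in it.

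Spots of a probe were averaged, control and outlier spots left out, and log2 signals reduced by the array's 75th percentile (421.8 in MMA, 455.7 in LLS, 506.7 in LMA, 490.5 in T). Dim values received the floor where they lay under it, genes dim in both tissues were left out of that comparison, and the probe with the highest mean signal stood for a gene. The 6 comparisons were counted by size, at least 2-fold. With 1 array per tissue there is no p-value, and the number of arrays limits the precision. The members, gene lists and the naming rule (all 10 members, the 3 highest and 3 lowest of a list in T minus LLS, the 10 genes most like the members and 2 most like each member) were chosen with earlier results of these data known. Of the genes this rule names, 1 is not reported here. All 128 list entries were found on the array. The counting was tested on simulated data, but the outcome is not given here and lends the counts no weight. Alternatives were other scalings, normexp, no filter, the mean over probes, 4-fold, the second table and, chosen after seeing the data, the probe with the highest mean log2 signal. Tools were Python 3.11.15, pandas 2.3.3, R 4.3.3 and limma 3.58.1.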

Additional observations from a re-analysis of the deposited data

How the results depend on the processing

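The counts of members at least 2-fold higher in T stayed at 9 in all 3 comparisons under each alternative with a filter, and were 10 without filter and floor, which lets in dim Mybpc2; 0 were lower under any. Their median ran from 4.26 to 5.44 against LLS, 3.70 to 5.01 against LMA and 4.66 to 7.69 against MMA. The counts at lower levels moved. In LLS over MMA, 3 members were higher, against 1 with normexp and 1 with the mean over probes, and 0 lower, against 1 without filter and floor. The count higher was 4 without filter and floor and 2 at 4-fold. In LMA over MMA, 4 were higher and 0 lower, against 8 and 1 without filter and floor. The count higher was 6 without scaling, 5 with the percentile over probes well above background on all arrays, and 3 with the mean over probes. In LLS under LMA, 5 were lower, against 1 with normexp, 2 with the mean over probes and 0 at 4-fold. That count was 7 without filter and floor, and 4 with quantile normalization and with the second table. Normexp adds 50 to each signal and thereby shrinks differences of dim genes, and the mean over probes draws in dim probes. Nrap and Ldb3 in LLS minus LMA changed sign between scalings, from -0.08 to 0.08 for Nrap with quantile normalization and from 0.08 to -0.07 for Ldb3 without scaling. Nrap was 6.44 higher in T than in LLS, and 3.62 higher with the probe of highest mean log2 signal, an alternative chosen after seeing the data. No paired analysis was possible because each tissue is 1 sample.

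Over all genes, counts higher and lower were 2272 and 1070 in T over LLS, against 1447 and 606 with normexp, 3549 and 2039 without filter and floor and 994 and 191 at 4-fold. They were 2575 and 1328 in T over LMA, against 1773 and 815, 3625 and 2629, and 1226 and 262. They were 3220 and 2428 in T over MMA, against 2217 and 1737, 4587 and 3552, and 1595 and 381. They were 1656 and 957 in LLS over MMA, against 979 and 554, 2843 and 2056, and 552 and 153. They were 1862 and 1270 in LMA over MMA, against 1122 and 760, 3336 and 2269, and 630 and 265. They were 642 and 510 in LLS over LMA, against 364 and 207, 1500 and 1836, and 190 and 74. Without scaling the median of all genes shifted by 0.22 in T over MMA (3869 higher, 1595 lower), by 0.26 in LMA over MMA (2596 and 728), by -0.15 in LLS over LMA (511 and 745), and by 0.11 in T over LLS and in LLS over MMA (1939 and 724). With the percentile over probes well above background on all arrays it shifted by 0.19 in T over MMA (3776 and 1692) and 0.13 in LMA over MMA (2209 and 964). Signals near the floor limit what can be said of Nrap, Ldb3, Csrp3, Myom2 and Mybpc2 before E14.5, and of Myom1 at E9.5.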
